A study of Mus musculus with 14 samples.

Results

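The genes described here encode cell adhesion molecules and structural proteins that are commonly used to follow the passage of pluripotent cells to neural progenitors: the cadherins Cdh1, Cdh2 and Cdh11, the adhesion molecule Ncam1, the intermediate filament genes Nes and Vim, and the secreted or lipid-binding products Ptn and Fabp7. These 8 genes are part of 19694 protein-coding genes to which a start-site bin could be given. For each of them, every called chromatin contact with an anchor in the 10 kb bin of its start site (build mm10) was taken from all 8 deposited contact lists. This gave 67 of 137221 distinct contacts called by MAPS and 52 of 73306 called by FitHiChIP, the 2 programs the labels name.

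The contacts came from H3K4me3 PLAC-seq, which ligates neighbouring chromatin fragments, pulls down those that carry trimethylated histone H3 lysine 4, the mark of active promoters, and sequences the ligated pairs. All cells were the F123 mouse line with a CTCF-AID allele, a degron tag on CTCF through which auxin triggers loss of the protein, and the controls carry the tag as well. The 4 groups were neural precursor cells (NPCs) differentiated with auxin and collected on day 4, NPCs of day 4 without auxin, embryonic stem cells (ESCs) after 48 h of auxin, and ESCs at 0 h of auxin. Auxin was given as 1 µl of a 500 mM stock per ml of medium, the titles give no hours of auxin for the NPCs, and the labels do not say whether the tagged line is 1 clone. Each group had 2 samples but 1 list per program, so differences between groups cannot be set against the spread of replicates, the conditions were not tested, and 95% intervals cover counting error only.

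As background, classical cadherins join neighbouring cells through their extracellular domains and connect to actin through catenins, and embryonic cells that become neural tissue are known to exchange E-cadherin for N-cadherin. Nestin and vimentin form the intermediate filaments of neural progenitors, and Fabp7 and Ptn are known from radial glia, the progenitors of the later neural tube. CTCF is the zinc finger protein that halts loop extrusion by cohesin, and many contacts between promoters and distant sequences lie next to its binding sites.

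The promoter sequence is shown for the 4 genes that the RefSeq promoter table of GRCm38.p6 holds. They are the structural genes Vim and Nes, whose loop numbers differed between groups, and Ptn and Fabp7, which had almost no loops. The contact counts rest on the whole 10 kb bins, of which these sequences are a small part. Each sequence is the 250 bases before the start, read 5′ to 3′ on the gene's own strand, with CpG dinucleotides in capitals. The Vim sequence lies at chr2:13574061-13574310 on the plus strand, that of Nes at chr3:87970843-87971092 on the plus strand, that of Ptn at chr6:36810180-36810429 on the minus strand, and that of Fabp7 at chr10:57784673-57784922 on the plus strand.
Vim: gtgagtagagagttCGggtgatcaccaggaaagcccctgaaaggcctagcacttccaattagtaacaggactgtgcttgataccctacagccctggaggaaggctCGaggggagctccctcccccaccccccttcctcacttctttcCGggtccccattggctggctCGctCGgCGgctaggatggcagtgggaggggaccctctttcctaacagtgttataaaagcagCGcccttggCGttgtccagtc
Nes: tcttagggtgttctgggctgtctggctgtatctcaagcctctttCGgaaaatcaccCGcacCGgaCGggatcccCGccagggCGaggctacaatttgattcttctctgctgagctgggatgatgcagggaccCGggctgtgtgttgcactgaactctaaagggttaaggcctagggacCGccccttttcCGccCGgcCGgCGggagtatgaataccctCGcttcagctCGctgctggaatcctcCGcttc
Ptn: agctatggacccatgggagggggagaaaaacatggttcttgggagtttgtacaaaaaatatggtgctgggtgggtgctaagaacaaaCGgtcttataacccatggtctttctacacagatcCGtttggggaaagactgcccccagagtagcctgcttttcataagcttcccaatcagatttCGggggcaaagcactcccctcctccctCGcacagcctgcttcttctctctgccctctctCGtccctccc
Fabp7: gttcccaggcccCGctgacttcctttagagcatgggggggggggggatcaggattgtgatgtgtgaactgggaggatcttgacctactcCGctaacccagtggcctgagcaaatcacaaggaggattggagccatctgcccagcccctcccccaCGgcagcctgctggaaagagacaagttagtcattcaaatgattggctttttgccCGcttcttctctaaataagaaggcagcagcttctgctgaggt

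The 4 promoters differed in CpG content. Nes held 15 CpGs and Vim 8, while Ptn held 5 and Fabp7 4, against a median of 10 over 21263 promoters of the same length. Fewer CpGs than in Nes were found in 63.3% of all promoters, and fewer than in Fabp7 in 29.0%. A search of both strands found the TATA box TATAAA in Vim alone, 32 bases before the start (11.6% of all promoters hold it). The GC box GGGCGG was found in Nes alone, at 73 and 62 bases before the start (42.6%). The CCAAT box CCAAT was found in Vim at 196 and 94 bases, in Fabp7 at 126 and 56 bases and in Ptn at 81 bases before the start (35.4%). Cdh1, Cdh2, Cdh11 and Ncam1 are named only.

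MAPS called 41667 loops (pairs of 10 kb bins in contact) in NPC auxin, 82861 in NPC control, 27610 in ESC auxin and 56714 in ESC control, each with at least 12 contacts, at least 2 times the background the program expected, a false discovery rate (FDR) under 0.01 and a distance of 20 to 1000 kb. FitHiChIP called 24836, 44892, 22705 and 33475 loops in the same group order, with q-values under 0.01 and distances of 20 to 2000 kb. The totals of contacts behind the FitHiChIP lists ran from 47519917 to 59961568, and each auxin list had more contacts behind it than its control list. A bin counted with 0 loops may still make contacts below these limits, and a contact made in fewer cells cannot be told apart from one made less often in each cell. Start-site bins marked as H3K4me3 peaks were found for 8 of 8 neural precursor markers in NPC auxin, 8 in NPC control, 7 in ESC auxin and 8 in ESC control. For the 8 ESC markers, of which 7 had a start-site bin, the numbers were 4, 6, 6 and 6. The lists show a mark only where a bin anchors a called loop. These counts therefore cannot show whether H3K4me3 separates the cell types.

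**Figure D1:**
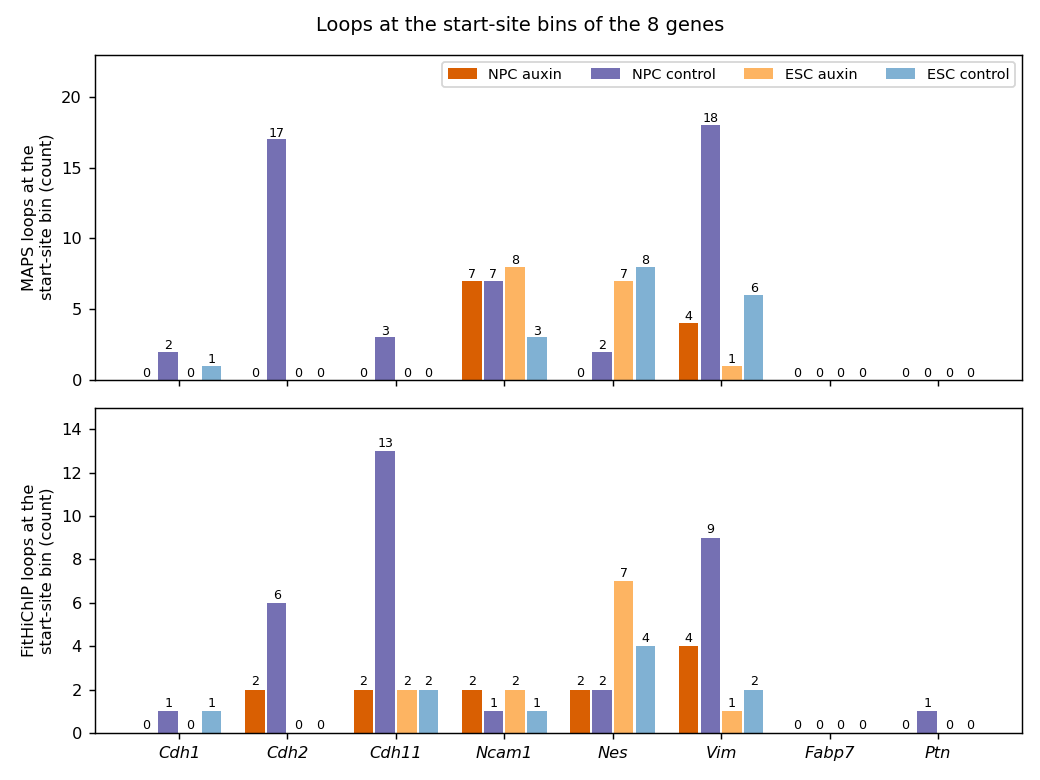
Number of loops with an anchor in the start-site bin of each gene (x axis) in NPC auxin, NPC control, ESC auxin and ESC control, for MAPS (upper) and FitHiChIP (lower), with the count above each bar and no error because each group has 1 list per program. Cdh2 reached 17 and Vim 18 MAPS loops in NPC control, while Fabp7 had none in any list.

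Summed over the 8 genes, the MAPS lists held 11 loops in NPC auxin, 49 in NPC control, 16 in ESC auxin and 18 in ESC control. FitHiChIP gave 12, 33, 12 and 10 in that order. The bar plot of loops per gene shows that NPC control stands above the other groups mainly through Cdh2 and Vim in MAPS, and through Cdh11, Vim and Cdh2 in FitHiChIP. Genes with at least 1 MAPS loop numbered 2 of 8 in NPC auxin, 6 in NPC control, 3 in ESC auxin and 4 in ESC control. Of all 19212 start-site bins, those with MAPS loops numbered 7748 in NPC auxin, 10167 in NPC control, 6346 in ESC auxin and 8664 in ESC control. NPC control was thus highest and ESC control higher than ESC auxin in both counts. The programs called 17 of the same bin pairs in NPC control, which is 34.7% of the MAPS loops and 51.5% of the FitHiChIP loops there.

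Cdh2, which encodes N-cadherin, the cadherin of neural tissue, had MAPS loops in undepleted NPCs and in no other group. The gene lies at chr18:16588877-16809246 and its start-site bin at chr18:16800001-16810000. MAPS called 0 loops there in NPC auxin, 17 in NPC control, 0 in ESC auxin and 0 in ESC control, and FitHiChIP called 2, 6, 0 and 0. Set against the floor of 3 loops per list, the MAPS count was at least 5.67-fold lower in NPC auxin than in NPC control, and at least 5.67-fold higher in NPC control than in ESC control. Scaled by the list totals (log2 of loops plus 1 in the first list over the second, minus the log2 ratio of all loops, called relative change below), NPC auxin over NPC control was -3.18, with an upper 95% bound of -1.05. NPC control over ESC control was 3.62, with a lower bound of 1.50. In FitHiChIP the relative change of NPC auxin over NPC control was -0.37, with an interval from -4.07 to 1.75. Both of its loops in NPC auxin lay 1650 to 1740 kb away, beyond the 1000 kb that MAPS tested. Its 6 loops in NPC control lay 120 to 600 kb away. The size of the difference thus depended on the program and on the distances it covers.

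The 17 Cdh2 partners in NPC control all lay at lower coordinates, 120 to 600 kb from the start-site bin, and 8 of them overlapped the body of Cdh2 itself. The contact count was 60 at 120 kb (95% Poisson interval 45.8 to 77.2), 48 at 160 kb and 40 at 230 kb, just past the 3′ end of the gene. A second group of 4 adjacent bins at 570 to 600 kb held 15 to 26 contacts. Its strongest bin, at 590 kb, had 26 contacts (17.0 to 38.1), 6.93 times the background and an FDR of 3.61e-12. FitHiChIP called the bin at 590 kb with 23 contacts (14.6 to 34.5), and the bins at 120, 160, 230, 580 and 600 kb as well. None of the 17 partner bins was marked as an H3K4me3 peak or held the start site of a protein-coding gene, and together they took part in 0 other loops in NPC auxin, 1 in NPC control, 0 in ESC auxin and 0 in ESC control.

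In NPC auxin the FitHiChIP loops of Cdh2 led elsewhere: 12 contacts (6.20 to 21.0) to a bin 1740 kb away inside Kctd1 and 11 (5.49 to 19.7) to a bin 1650 kb away that holds a start site of Kctd1, a gene of the potassium channel tetramerisation domain family. Both partners were marked as peaks and lie beyond the 1000 kb that MAPS tested. Reads covering the Cdh2 bin numbered 7133 in NPC auxin and 7230 in NPC control. This is a log2 ratio of -0.02, and -0.10 relative to the median of 11645 marked bins, of which 20.5% lay lower. The bin was an anchor in no ESC list, so these lists do not show its mark or reads in ESCs.

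The MAPS count of Cdh2 in NPC control was high but not rare, and few bins had its MAPS pattern over the groups. Of 10167 start-site bins with MAPS loops in NPC control, 7.52% held at least 17. Of 1981 bins with at least 10 loops in NPC control, 4.8% had none in NPC auxin and 5.7% had none in ESC control, and 0.454% (9 bins) had none in all 3 other groups. The pattern counted last is that of Cdh2 itself, so this share is a description and no support. FitHiChIP called 2 Cdh2 loops in NPC auxin, so the pattern is that of MAPS alone. Of 4887 bins that reached 10 loops in all lists together, the 5 whose scaled counts over the 4 groups were closest to Cdh2 included the predicted gene Gm45915, with 0, 17, 0 and 0 loops and a log2 distance of 0.00. Others were Nova1, a neuronal splicing regulator, with 14 loops in NPC control and a distance of 0.26, the bin shared by Atpif1 and Dnajc8 with 13 and 0.36, and Ankrd44 with 12 and 0.47, and all of these had 0 loops in the other groups.

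**Figure D2:**
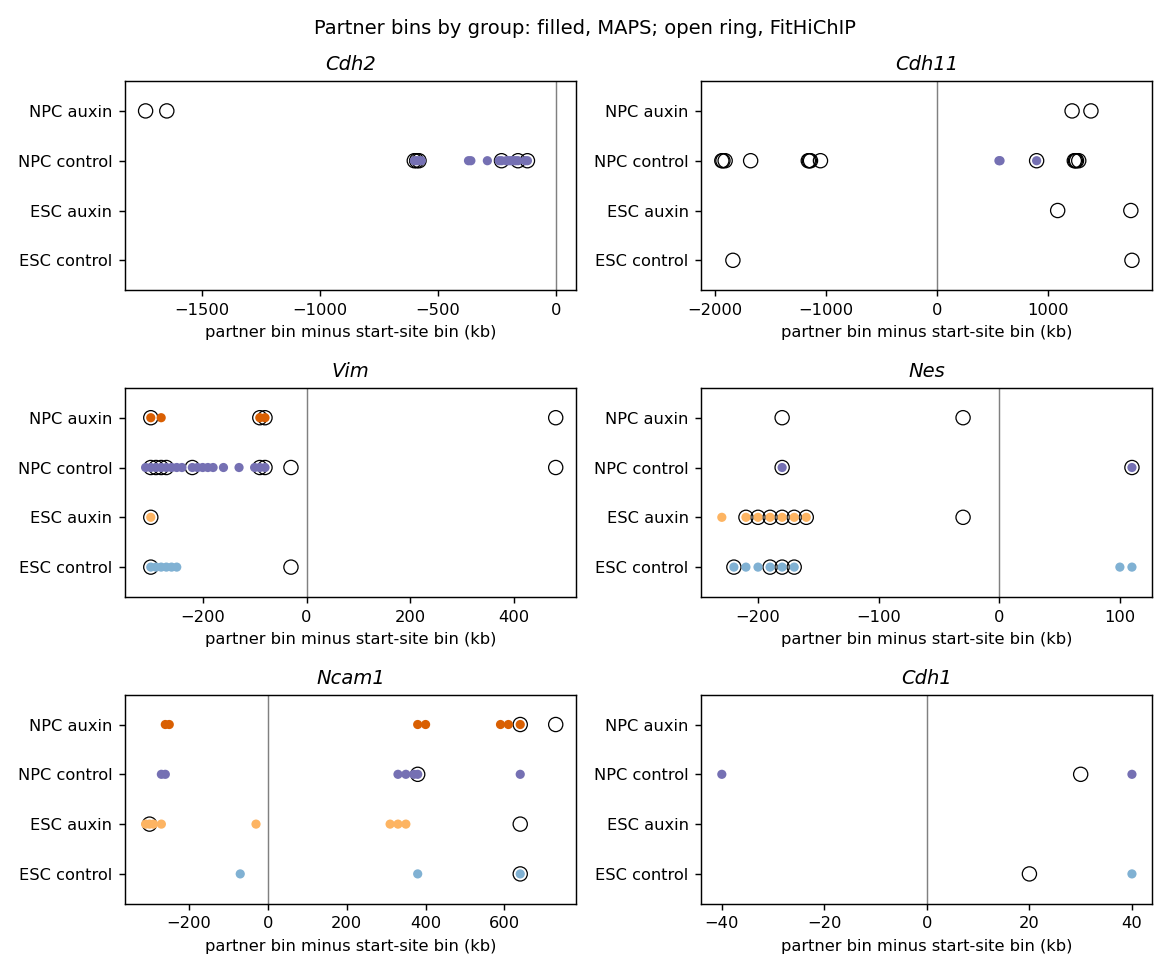
Position of each partner bin relative to the start-site bin (x axis, kb, positive towards higher coordinates) for 6 of the genes, with the groups as rows, filled points for MAPS loops and open rings for FitHiChIP loops. The scale differs between panels, and Cdh2 partners of NPC control lie 120 to 600 kb away on 1 side, while the FitHiChIP partners of Cdh11 in NPC control lie 900 to 1940 kb away on both sides.

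Cdh11, a type II cadherin known from mesenchyme and neural crest, shared with Cdh2 its highest loop count in NPC control. It lies at chr8:102632095-102785493 with its start-site bin at chr8:102780001-102790000. MAPS called 0 loops in NPC auxin, 3 in NPC control, 0 in ESC auxin and 0 in ESC control. FitHiChIP called 2, 13, 2 and 2, and 4.93% of 10052 start-site bins with FitHiChIP loops in NPC control held as many or more. The FitHiChIP relative change was -1.37 for NPC auxin over NPC control (-5.04 to 0.30), an interval that includes 0, and 1.80 for NPC control over ESC control (0.13 to 5.47), one that does not.

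The partners of Cdh11 were far away. The 3 MAPS partners in NPC control lay 560, 570 and 900 kb towards higher coordinates, with 19, 19 and 16 contacts, and none was a peak bin. The FitHiChIP partners in NPC control lay 900 to 1940 kb away, 8 towards lower and 5 towards higher coordinates, with 11 to 29 contacts. The strongest, at 1240 kb, had 29 contacts (19.4 to 41.7), 10.9 times the background. None of these 13 pairs was called in another group. Of all FitHiChIP loops of NPC control, 35.8% were called again in NPC auxin. The share called again in any other group was not taken for the list, and many of these pairs are adjacent. In NPC auxin the partners were a bin at 1220 kb and the start-site bin of Bean1 at 1390 kb, with 14 contacts each. In ESC auxin 1 partner was the bin of Car7, a carbonic anhydrase, and Nae1, which acts in NEDD8 conjugation, at 1750 kb with 10 contacts, and in ESC control the adjacent bin at 1760 kb, which holds a start site of Car7, had 9. Reads covering the Cdh11 bin numbered 8655 in NPC auxin, 8043 in NPC control, 5600 in ESC auxin and 4994 in ESC control.

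Cdh1, which encodes E-cadherin, the cadherin of ESCs and epithelia, had few loops in any group, and these were short. It lies at chr8:106603350-106670247 with its start-site bin at chr8:106600001-106610000. MAPS called 0 loops in NPC auxin, 2 in NPC control, 0 in ESC auxin and 1 in ESC control, and FitHiChIP called 0, 1, 0 and 1. The pair shared by both controls joined the start to a bin 40 kb into the gene, with 195 contacts in NPC control and 155 in ESC control, a log2 ratio of 0.33 (0.02 to 0.64). All 28547 loops shared by these lists had a median log2 ratio of 0.19, which leaves 0.14 for the Cdh1 pair. Reads covering the Cdh1 bin were 9706 in NPC control and 6081 in ESC control, a log2 ratio of 0.67 against a median of 0.43 over marked bins. By loop number, contacts or reads, E-cadherin's bin was therefore not lower in NPC control than in ESC control. In the bin on its higher-coordinate side MAPS called 2 loops in ESC auxin and none in the other groups.

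Ncam1, the neural cell adhesion molecule of the immunoglobulin superfamily, had as many loops in NPC auxin as in NPC control, and more in ESC auxin than in ESC control. It lies at chr9:49502129-49799393 with its start-site bin at chr9:49790001-49800000. MAPS called 7 loops in NPC auxin, 7 in NPC control, 8 in ESC auxin and 3 in ESC control, and FitHiChIP called 2, 1, 2 and 1. The relative change was 0.99 for NPC auxin over NPC control (-0.75 to 2.73) and 2.21 for ESC auxin over ESC control (0.39 to 5.00). In FitHiChIP the ESC value was 1.14, from -2.70 to 7.44, on 3 loops in all.

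Of the 7 MAPS pairs of Ncam1 in NPC auxin and the 7 in NPC control, 3 were shared, and 4 in each list were not called in the other. Of all MAPS loops of NPC control, 27.0% were called again in NPC auxin. The pair at 640 kb towards higher coordinates had 24 contacts in NPC auxin, 19 in NPC control and 22 in ESC control, and FitHiChIP counted 23 in NPC auxin, 21 in ESC auxin and 22 in ESC control there. The pair at 380 kb had 27 contacts in NPC auxin, 28 in NPC control and 23 in ESC control. For the 3 pairs shared by both NPC lists the log2 ratio of NPC auxin over NPC control ran from -0.06 to 0.34, and every interval included 0. FitHiChIP in NPC auxin added a bin at 730 kb that holds the start site of Pts, an enzyme of tetrahydrobiopterin synthesis, with 18 contacts.

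In ESC auxin the MAPS partners of Ncam1 were not those of ESC control. Towards lower coordinates lay 4 bins at 270 to 310 kb with 21 to 29 contacts, at and past the 3′ end of the gene. A bin at 30 kb had 98 contacts, and 3 bins lay at 310 to 350 kb on the other side. The bin at 310 kb towards lower coordinates holds the start site of Ttc12, with 24 contacts. The pairs at 270 kb towards lower and at 330 and 350 kb towards higher coordinates were also called in NPC control, with 27, 20 and 28 contacts. None of the 3 ESC control pairs was called again in ESC auxin, although FitHiChIP called the 640 kb pair in both. Of all MAPS loops of ESC control only 22.9% were called again in ESC auxin, so with 3 pairs this is not shown to be a trait of Ncam1. Along with these added loops, the bin itself had fewer short-range reads in the MAPS list, 405 in ESC auxin and 535 in ESC control. That log2 ratio of -0.40 compares with a median of 0.28 over 9739 marked bins, and 0.0205% of bins lay lower. Reads covering the bin in FitHiChIP were 5283 in ESC auxin and 6231 in ESC control, and 0.303% of 9231 bins lay lower. Both programs take a bin's reads into their background, and the part of this read difference in the loop difference was not tested.

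**Figure D3:**
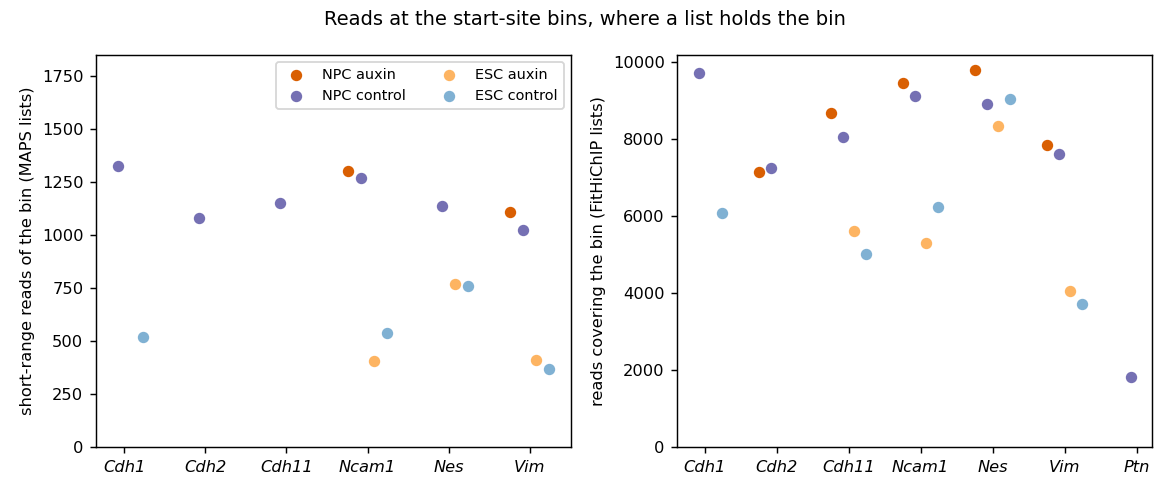
Reads of each start-site bin in the lists that hold it (MAPS short-range reads on the left, reads covering the bin in FitHiChIP on the right) for NPC auxin, NPC control, ESC auxin and ESC control, with no error because each group has 1 list per program. Ncam1 is lower in ESC auxin (405 and 5283) than in ESC control (535 and 6231), while Cdh2 has 7133 in NPC auxin and 7230 in NPC control.

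Vim, which encodes vimentin, the filament protein of progenitors and mesenchymal cells, had the highest MAPS count of the 8 genes, in NPC control. It lies at chr2:13574311-13582826 on the plus strand, with its start-site bin at chr2:13570001-13580000. MAPS called 4 loops in NPC auxin, 18 in NPC control, 1 in ESC auxin and 6 in ESC control, and FitHiChIP called 4, 9, 1 and 2. The relative change was -0.93 for NPC auxin over NPC control (-3.20 to 0.42), -0.77 for ESC auxin over ESC control (-7.07 to 1.50) and 0.89 for NPC control over ESC control (-0.36 to 2.66). Each of these intervals includes 0, so at these numbers of loops Vim could not be set apart from the change of the lists as a whole.

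All MAPS partners of Vim lay upstream, 80 to 310 kb away, and 17 of the 18 in NPC control overlapped Cubn, which encodes the endocytic receptor cubilin. The pair with the start-site bin of Rsu1, a Ras suppressor, at 300 kb, was the only bin pair of the 8 genes that MAPS called in all 4 groups. It had 40 contacts in NPC auxin, 77 in NPC control, 35 in ESC auxin and 46 in ESC control, and FitHiChIP counted 38, 71, 31 and 40. NPC control was thus highest in both programs and the other groups lay close together. The next pair, at 280 kb, had 24 contacts in NPC auxin, 61 in NPC control and 23 in ESC control, and its ratio to the background was 2.66 in NPC auxin and 8.60 in NPC control.

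At the Vim partners 280 and 300 kb upstream NPC auxin had fewer contacts than NPC control, and at the shared partners 80 and 90 kb upstream the intervals included 0. The log2 ratio of NPC auxin over NPC control was -0.94 at Rsu1 (-1.53 to -0.38) and -1.35 at 280 kb (-2.09 to -0.64). At 90 kb the pair had 93 contacts in NPC auxin and 85 in NPC control, a log2 ratio of 0.13 (-0.31 to 0.57). At 80 kb, in the bin of the Cubn start site, it had 100 and 93, a log2 ratio of 0.10 (-0.32 to 0.53). The median over all 22391 shared loops was -0.07. In FitHiChIP the Rsu1 pair gave -0.90 (-1.51 to -0.31), and the pairs at 90 and 80 kb gave 0.10 (-0.35 to 0.55) and 0.10 (-0.32 to 0.53), so the intervals of the Rsu1 pair and these pairs overlap there, though not in MAPS. The bin of Hacd1, an enzyme of fatty acid elongation, 480 kb downstream, had 25 contacts in NPC auxin and 27 in NPC control, a log2 ratio of -0.11 (-0.96 to 0.73). Reads covering the Vim bin were 7839 in NPC auxin and 7611 in NPC control.

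Between the cell types the contacts of Vim were higher in NPC control at every pair that both control lists hold. At these 6 pairs, 250 to 300 kb away, the log2 ratio of NPC control over ESC control ran from 0.74 to 1.41, and no interval included 0. The median over all shared loops was 0.19, a value that the intervals at 250 kb (0.09 to 1.97) and 260 kb (0.04 to 1.77) include and the other 4 do not. FitHiChIP counted 200 contacts in NPC control and 84 in ESC control with the bin of Trdmt1, an RNA methyltransferase, at 30 kb. Reads covering the Vim bin were 7611 in NPC control and 3700 in ESC control, a log2 ratio of 1.04 against a median of 0.43, and 91.1% of marked bins lay lower. The part of these reads in the contact counts was not tested. The 18 partner bins took part in 2 other loops in NPC auxin, 36 in NPC control, 4 in ESC auxin and 8 in ESC control. Of these bins, 2 of 18 had other loops in NPC auxin and 9 of 18 in NPC control.

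**Figure D4:**
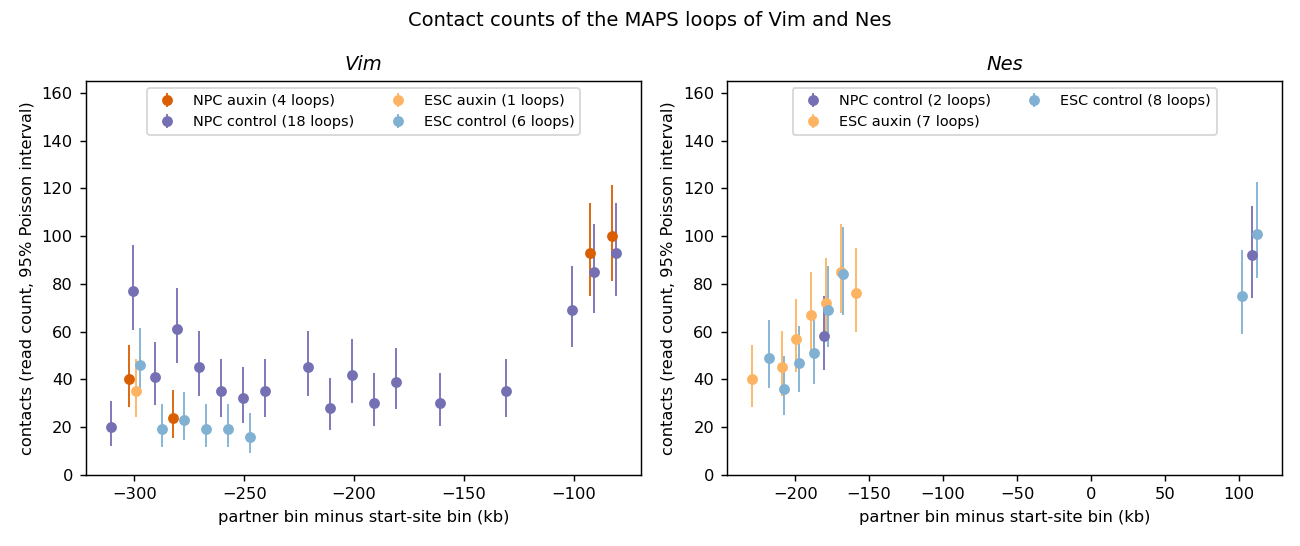
Contact count (y axis, reads, with 95% Poisson intervals) of each MAPS loop of Vim and Nes by the position of its partner bin (x axis, kb from the start-site bin, groups shifted slightly sideways). At Vim the NPC auxin points at 280 and 300 kb (24 and 40 contacts) lie below those of NPC control (61 and 77), while the points at 80 and 90 kb overlap, and at Nes the ESC auxin and ESC control points overlap at the pairs both lists hold.

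Nes, which encodes nestin, the filament protein that marks neural progenitors, had fewer loops in NPCs than in ESCs. It lies at chr3:87971093-87980451 on the plus strand, with its start-site bin at chr3:87970001-87980000. MAPS called 0 loops in NPC auxin, 2 in NPC control, 7 in ESC auxin and 8 in ESC control, and FitHiChIP called 2, 2, 7 and 4. The relative change was -2.13 for NPC control over ESC control (-5.82 to -0.22), an interval that excludes 0. For NPC auxin over ESC auxin it was -3.59 with an upper bound of -1.12, and the count was at least 2.33-fold lower against the floor of 3 loops. In FitHiChIP the same comparisons gave -1.16 (-4.89 to 1.38) and -1.54 (-5.24 to 0.46), of the same sign with intervals that include 0. MAPS called 3 further loops from the bin downstream of the start-site bin in NPC auxin, 2 in NPC control, 5 in ESC auxin and 1 in ESC control.

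The ESC partners of Nes formed 1 block at 160 to 230 kb upstream, in part over the bodies of Pear1, a platelet receptor gene, and Insrr, an insulin receptor-related gene. MAPS called 5 of these pairs in both ESC lists, with 45 to 85 contacts in ESC auxin and 36 to 84 in ESC control. The log2 ratio of ESC auxin over ESC control ran from 0.02 to 0.39, and every interval included 0. The pairs with the start-site bins of Ttc24 and Iqgap3 on the other side, with 75 and 101 contacts in ESC control, were not called in ESC auxin. Iqgap3, a scaffold protein gene, was also a partner in NPC control, with 92 contacts.

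The pair of Nes with the bin at 180 kb was called by FitHiChIP in all 4 groups, with 64 contacts in NPC auxin, 55 in NPC control, 70 in ESC auxin and 68 in ESC control. MAPS counted 58 there in NPC control, 72 in ESC auxin and 69 in ESC control. The MAPS log2 ratio of NPC control over ESC control was -0.25 (-0.78 to 0.27), an interval that includes 0. Reads covering the Nes bin were 8899 in NPC control and 9026 in ESC control, a log2 ratio of -0.02 against a median of 0.43, and 12.4% of marked bins lay lower. At Nes, unlike Vim, fewer loops and relatively fewer reads thus came together in NPC control, and their relation was not tested. In ESC auxin the Nes bin had 8325 reads against 9026 in ESC control, and 3.93% of 9231 bins had a lower ratio.

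Fabp7, the brain lipid-binding protein of radial glia, had 0 loops in all 8 lists. It lies at chr10:57784923-57788450 on the plus strand, with its start-site bin at chr10:57780001-57790000. The neighbouring bin, which holds the start site of Smpdl3a, a phosphodiesterase gene, had 0 MAPS loops in NPC auxin, 1 in NPC control, 1 in ESC auxin and 2 in ESC control, and 2, 3, 3 and 3 FitHiChIP loops. Loops were thus called beside it, and the lists do not show whether the Fabp7 bin carried H3K4me3.

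Ptn, the secreted heparin-binding growth factor pleiotrophin, lies at chr6:36714924-36810179 on the minus strand, with its start-site bin at chr6:36810001-36820000. It had 0 loops in the 4 MAPS lists. FitHiChIP called 0 loops in NPC auxin, 1 in NPC control, 0 in ESC auxin and 0 in ESC control. That loop reached the start-site bin of Chrm2, a muscarinic acetylcholine receptor gene, at 430 kb, with 11 contacts (5.49 to 19.7) and a q-value of 6.44e-03. The Ptn bin had 1818 reads there, against 7230 at Cdh2 and 9706 at Cdh1 in the same list, and it was the lowest of the 7 genes in that list. The neighbouring bin at chr6:36800001-36810000, which lies within the gene, had 1 FitHiChIP loop in ESC control and none in the other lists.

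Taking NPC auxin against NPC control, progenitors formed with and without auxin, 5 of the 6 genes with MAPS loops had fewer, none had more and Ncam1 was equal. Over all 11094 start-site bins with loops in either list, 70.2% had fewer and 20.3% had more. In FitHiChIP 5 of 7 genes had fewer, Ncam1 had more and Nes was equal, beside 60.7% with fewer and 21.3% with more over all such bins. No MAPS loops were called in NPC auxin at Cdh1, Cdh2, Cdh11 and Nes, which is 4 of 6. These genes had 2, 17, 3 and 2 in NPC control. Of all start-site bins with MAPS loops in NPC control, 32.9% had none in NPC auxin. In FitHiChIP this held for 2 of 7 genes, Cdh1 and Ptn, and the share over all bins is not given here. The loops at the 8 genes in NPC auxin were 22.4% of those in NPC control (10.5 to 43.8), while the whole list was at 50.3%. Without Cdh2 the value was 34.4% (15.6 to 70.0), an interval that includes the list's value, and without Ncam1 it was 9.52% (2.48 to 26.3). Of the 49 loops of NPC control, 7 were called again in NPC auxin, all at Vim or Ncam1, which is 14.3% (5.94 to 27.2) beside 27.0% for the list. Where the partner could differ by 1 bin, 13 of the 49 were called again, or 26.5%, a setting that was not applied to the list.

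Taking ESC auxin against ESC control, stem cells after 48 h and 0 h of auxin, 3 of the 4 genes with MAPS loops had fewer and Ncam1 had more. Of all 9707 start-site bins with loops, 67.5% had fewer and 22.2% had more, so the direction at these genes was close to that of the background. In FitHiChIP Cdh1 and Vim had fewer, Ncam1 and Nes had more and Cdh11 was equal, beside 57.7% with fewer and 24.2% with more. The loops at the 8 genes in ESC auxin were 88.9% of those in ESC control (42.4 to 185), beside 48.7% for the list. Without Ncam1 they were 53.3% (19.6 to 134). Of the 18 loops of ESC control, 6 were called again in ESC auxin, 5 at Nes and 1 at Vim, which is 33.3% (13.3 to 59.0) beside 22.9% for the list.

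Taking NPC control against ESC control, the differentiation itself, 5 of 6 genes had more MAPS loops and Nes had fewer. Of all 11373 start-site bins with loops, 62.6% had more and 26.2% had fewer. In FitHiChIP Nes had fewer, 4 of 7 genes had more and 2 were equal, beside 22.9% with fewer and 61.5% with more. The loops at the 8 genes in NPC control were 272% of those in ESC control (156 to 497), beside 146% for the list, and without Cdh2 they were 178% (96.8 to 336), an interval that includes the list's value. Without Nes they were 470% (234 to 1043), an interval that does not. Of the 18 loops of ESC control, 11 were called again in NPC control, which is 61.1% (35.8 to 82.7) beside 50.3% for the list. In FitHiChIP the order was the opposite, with 3 of 10 called again, or 30.0% (6.67 to 65.3), beside 53.5% for the list.

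Taking NPC auxin against ESC auxin, the differentiation under auxin, Nes and Ncam1 had fewer MAPS loops and Vim had more. Of all 9223 start-site bins with loops, 29.0% had fewer and 60.6% had more. In FitHiChIP Nes had fewer, Cdh2 and Vim had more and Cdh11 and Ncam1 were equal, beside 25.1% with fewer and 59.0% with more. The loops at the 8 genes in NPC auxin were 68.8% of those in ESC auxin (28.9 to 158), beside 151% for the list, and without Nes 122% (46.0 to 334). The Vim pair with Rsu1 was the only loop that both auxin lists held by MAPS. These comparisons share lists with each other, so their values are given side by side and not as independent results.

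The median MAPS distance of the loops at the 8 genes was 300 kb in NPC auxin, 240 kb in NPC control, 250 kb in ESC auxin and 215 kb in ESC control, beside 300, 260, 240 and 230 kb for the lists. In FitHiChIP it was 560 kb in NPC auxin, 480 kb in NPC control, 205 kb in ESC auxin and 205 kb in ESC control, beside 470, 390, 500 and 370 kb for the lists. The partner bin was itself a peak in 27.3% of loops in NPC auxin (6.02 to 61.0), 10.2% in NPC control (3.40 to 22.2), 56.3% in ESC auxin (29.9 to 80.3) and 44.4% in ESC control (21.5 to 69.2). In the lists both anchors were peaks in 26.7%, 19.1%, 36.2% and 26.4% of loops. The share at the 8 genes is seen from the gene's own bin, while the list's share counts each loop once. A loop with peaks at both ends can be reached from either end, so these measures are not alike and cannot be compared directly. The low share in NPC control came with Cdh2 and Vim, whose partners were peaks at 0 of 17 and 3 of 18 loops, and the high shares in ESCs came with Nes, at 6 of 7 loops in ESC auxin and 7 of 8 in ESC control.

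Other genes of the same pathways were taken from lists and counted in the same way, with the relative change given for genes with at least 5 loops over both lists. Among 13 other classical cadherins with a start-site bin, 7 had MAPS loops in NPC auxin or NPC control and all 7 had fewer in NPC auxin, 10 against 45 loops, beside the 70.2% of all start-site bins with fewer. The lowest relative change was that of Cdh5, the endothelial cadherin, with 0 loops in NPC auxin and 5 in NPC control, followed by Cdh15 with 2 and 9, and the highest was that of Cdh4, or R-cadherin, with 5 and 11. The median of the 4 cadherins with at least 5 loops was -0.61, beside 0.25 over 5696 start-site bins and -0.93 for the 3 of the 8 genes that qualify.

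Of 9 catenin and other adherens junction genes with loops, 3 had fewer and 4 had more in NPC auxin, 40 against 47 loops, beside 70.2% with fewer and 20.3% with more over all bins. Their lowest was Ctnnd1, p120-catenin, with 3 loops in NPC auxin and 14 in NPC control, and their highest was Plekha7, which binds it at junctions, with 12 and 8. The median was 1.13. Of 14 epithelial junction and keratin genes 7 had fewer and 5 had more, beside the same shares, with Ovol2 lowest at 0 and 5 loops and the tight junction gene Cldn6 highest at 5 and 1. The median was 0.91.

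All 6 transcription factors of the epithelial to mesenchymal transition, which are known as repressors of E-cadherin, had fewer loops in NPC auxin, 39 against 102, beside 70.2% of all bins. Snai2 was lowest, with 6 loops in NPC auxin and 24 in NPC control, and Snai1 with 8 and 14 and Twist2 with 2 and 4 were highest, with a list median of -0.25. All 6 also had more loops in NPC control than in ESC control, 102 against 23, beside 62.6% of all bins. Twist1 at 27 and 0 and Zeb1 at 21 and 0 were highest, and Zeb2 at 12 and 4 and Snai1 at 14 and 12 were lowest, with a relative change of -0.34 for Snai1. Their median relative change was 1.10, beside 0.04 over 6091 bins and 0.67 for the 4 of the 8 genes that qualify. Cdh2 and these factors thus had more loops in NPC control, and Cdh1, their classical target, had 2 in NPC control and 1 in ESC control.

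Of the immunoglobulin superfamily adhesion genes other than Ncam1, 4 of 6 with loops had fewer in NPC auxin and none had more, 5 against 28, a share close to the 70.2% of all start-site bins. Ncam2 was lowest, with 0 loops in NPC auxin and 5 in NPC control, and Alcam had 2 and 14, where Ncam1 had 7 and 7. The median of the 3 that qualify was -1.33. Intermediate filament genes other than Nes and Vim had fewer in 9 of 12 and more in 1, 32 against 64 loops, which is also close to the 70.2% of all bins and to the list's 50.3% of loops. Gfap, the filament of astrocytes, was lowest at 1 and 8, Ina, a neuronal filament gene, had 3 and 14, and the lamin gene Lmnb2 was among the highest at 6 and 6, with a median of 0.25. Genes of radial glia, fatty acid binding and the pleiotrophin pathway had fewer in 11 of 12, 99 against 158 loops, beside the same 70.2%, with a median of 0.46. Prom1 was lowest at 1 and 5 and Notch1 highest at 4 and 2. Alk, a receptor for pleiotrophin, had 15 loops in NPC auxin and 20 in NPC control, and Fabp5, a relative of Fabp7, had 9 and 16.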

How the data were processed

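Contact lists came from H3K4me3 PLAC-seq of mouse F123 CTCF-AID cells. BWA, Picard and the build mm10 stand in the submitters' processing notes without versions. No source used here says if replicates were pooled for calling. Per the file headers, the deposited MAPS lists give a read count per bin pair, the expected background as a signal, their ratio, an FDR (a corrected p-value), and for each anchor its short-range reads and a peak mark. For FitHiChIP the deposited columns are a contact count, the reads covering each anchor, peak marks, a q-value, and expected values as a fraction of all contacts, per the file headers. The counts, ratios and q-values are the authors' own. The total of contacts is the expected contacts divided by that fraction.

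Start-site bins of 21900 protein-coding genes came from the RefSeq promoter table (17492 genes), from the 1 gene end that a list marks as a peak (2200), or from the given bin (2, Cdh2 and Ncam1). The 749 genes with marked ends in 2 bins and 1457 with none were left out, which left 19212 bins. Such a marked end can belong to a neighbouring promoter. Poisson, binomial and Clopper-Pearson 95% intervals assume independent loops, and since many loops are adjacent they are too narrow. Relative changes use a pseudocount of 1 and their intervals none. Only the intervals were tested on simulated data, with independent counts and without the scaling by list totals. That test does not cover the relative changes or adjacent loops. Python 3.11.15, pandas 2.3.3, NumPy 2.4.6 and SciPy 1.17.1 were used.

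The members and gene lists were chosen with earlier results of these data known. All 8 members are named, with partner genes that start in the other anchor, 4 of the 5 bins most like Cdh2 (the other is not reported here), and extremes of each list in NPC auxin against NPC control. Cubn, Insrr and other genes that overlap a partner bin, and Alk, Fabp5, Twist1, Zeb1 and Zeb2, which stand for their lists' roles or for the other comparison, were named after their values were seen. Alternatives changed the caller, anchor window, FDR, ratio, pseudocount, scaling and partner tolerance. The 6 samples of the 3 dCas9 groups were not analysed here.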

Additional observations from a re-analysis of the deposited data

Results flagged for a closer look

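Ncam1 was singled out because its loops went opposite ways on differentiation with and without auxin. MAPS called 7 loops in NPC auxin and 8 in ESC auxin, a difference of -1. Without auxin there were 7 in NPC control and 3 in ESC control, a difference of 4. With 1 list per group the difference between these differences was not tested. FitHiChIP called 2 loops in either auxin list and 1 in either control list.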

How the results depend on the processing

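With other settings, 53 of the summed results stayed within their error or 1.5 times their count, and 10 moved; the cause was not tested. Fewer loops in ESC auxin than in ESC control were seen at 1 gene with a MAPS ratio of at least 3 (3 in the report). Fewer in NPC control than in ESC control were seen at 2 genes with the bins on both sides and 0 at that ratio (1 in the report). Fewer in NPC auxin than in ESC auxin were seen at 1 gene in FitHiChIP, 4 with the bins on both sides and 1 at an FDR under 0.0001 (2 in the report). NPC auxin held 9.52% of the NPC control loops without Ncam1, an alternative chosen after seeing the data. ESC control loops called again in ESC auxin were 12.5% at a ratio of at least 3. Those called again in NPC control were 30.0% in FitHiChIP and 100% at that ratio. Relative changes of single genes kept their sign in 15 of 19 cases in FitHiChIP, 18 with the bins on both sides, 16 without scaling by list totals and 18 with a pseudocount of 0.5, and none that had been set apart from 0 changed sign. Few loops per gene and 1 list per group limit all of these values. No paired analysis was possible because each group has 1 list per program, with no column per replicate.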

Other observations

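Within 1 Mb of the Cdh1 bin, MAPS called 102 other loops in NPC auxin, 242 in NPC control, 98 in ESC auxin and 164 in ESC control, while the Cdh1 bin itself had at most 2. Around Cdh2 the counts were 0, 2, 0 and 0, and around Cdh11 they were 0 in all 4 groups, so the loops of these cadherin genes were nearly the only ones called in their regions. Around Vim the counts were 11 in NPC auxin, 66 in NPC control, 4 in ESC auxin and 11 in ESC control. Around Ptn, which had no MAPS loop of its own, they were 25, 51, 11 and 29 in the same group order.

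Most contacts of the 8 genes were seen in 1 group. Of the 67 distinct MAPS pairs, 46 were called in 1 group, 16 in 2, 4 in 3 and 1 in 4. Of the 52 FitHiChIP pairs, 42 were called in 1 group, 7 in 2, 1 in 3 and 2 in 4, the pairs of Vim with Rsu1 and of Nes with the bin at 180 kb. The same split was not made for all pairs of the lists, which were 137221 in MAPS and 73306 in FitHiChIP. It is therefore not shown to be a trait of these genes.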
